A study of Homo sapiens with 2 samples.

Results

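The genes described here are the human ubiquitin-conjugating enzymes (E2 enzymes), a list of 34 genes chosen by name from the 20033 protein-coding genes of GENCODE release 44 on chromosomes 1 to 22, X and Y. The list holds UBE2D3, UBE2N and UBE2J1, the E2 genes that the study names, and the rest of the family. NUDT21, the protein mapped here, is a subunit of the cleavage factor that selects polyadenylation sites in pre-mRNA. NUDT21 was mapped on chromatin by CUT&Tag in J.gamma1, an established line of Jurkat origin that lacks phospholipase C gamma 1 and stands for T-cell acute lymphoblastic leukemia, or T-ALL. In CUT&Tag an antibody, here against NUDT21, directs a transposase to its target, and the DNA fragments cut there are sequenced. Both samples were J.gamma1 cells for which the labels name no treatment, numbered as replicates 1 and 2 of 1 group. The study's methods call them independent biological replicates. No control sample was analysed here, and the 1 line is a single clone.

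E2 enzymes occupy the middle step of ubiquitin transfer. An E1 enzyme activates ubiquitin, passes it to a cysteine of the E2, and an E3 ligase then directs it from the E2 to a substrate. The E2 often decides which lysine of ubiquitin is linked to the next, so that some members build K48 chains, which mark proteins for the proteasome, and others K63 chains, which serve signalling and DNA repair. A few members carry NEDD8, ISG15 or FAT10, which resemble ubiquitin, in its place.

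For each E2 gene the deposited peaks were sorted into 3 kinds. A promoter peak had an edge within 3000 bp of any annotated transcript start of the gene. A gene-end peak lay within 1000 bp of the outermost 3′ end and not near any annotated start. A gene-body peak lay elsewhere over the gene and away from all annotated starts. Replicate 1 held 92722 peaks and replicate 2 held 66671 on the chromosomes used, with a median of 30 and 20 fragments at the summit as recovered from the deposited values. As a check of the cell type, 8 of 10 T-cell marker genes had promoter peaks in both replicates, but so did 3 of 4 B-cell and 3 of 4 myeloid markers and 0 of 2 erythroid markers. Promoter peaks therefore did not set T-cell genes apart from those of other white blood cells.

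The promoter sequences below show what lay under the peaks at the genes named by the study, at the 2 E2 genes with the strongest promoter peaks (UBE2G1 and UBE2S), and at UBE2D1 and UBE2E3, which had none. They came from RefSeq (GRCh38.p14), are written in the direction of transcription, and are the stretches upstream of the start that no annotated exon touches. Capitals mark matches on either strand to any of 8 short motifs, which are spelled out after the sequences.
UBE2G1: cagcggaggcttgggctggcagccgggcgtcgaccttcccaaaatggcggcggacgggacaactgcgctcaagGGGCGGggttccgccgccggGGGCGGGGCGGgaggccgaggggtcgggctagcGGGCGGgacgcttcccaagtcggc
UBE2S: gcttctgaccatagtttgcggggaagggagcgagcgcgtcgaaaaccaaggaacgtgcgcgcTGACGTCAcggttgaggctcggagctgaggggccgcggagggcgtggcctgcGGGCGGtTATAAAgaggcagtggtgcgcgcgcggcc
UBE2D3: gcaggaggagggggagGGGCGGagc
UBE2N: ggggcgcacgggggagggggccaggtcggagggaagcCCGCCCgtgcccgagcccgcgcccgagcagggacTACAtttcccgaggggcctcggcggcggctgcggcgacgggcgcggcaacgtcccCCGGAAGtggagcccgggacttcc
UBE2J1: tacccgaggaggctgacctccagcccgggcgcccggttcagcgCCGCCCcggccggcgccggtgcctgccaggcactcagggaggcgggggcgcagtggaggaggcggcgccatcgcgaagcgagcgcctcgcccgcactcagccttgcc
UBE2D1: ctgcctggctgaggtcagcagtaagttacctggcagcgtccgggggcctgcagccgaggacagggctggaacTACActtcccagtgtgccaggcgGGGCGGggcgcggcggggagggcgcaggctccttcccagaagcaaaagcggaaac
UBE2E3: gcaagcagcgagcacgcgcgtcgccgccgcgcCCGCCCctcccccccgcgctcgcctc

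On hg38 these stretches lie at chr17:4366676-4366825 (UBE2G1), chr19:55407789-55407938 (UBE2S), chr4:102827567-102827591 (UBE2D3), chr12:93441948-93442097 (UBE2N) and chr6:89352723-89352872 (UBE2J1) on the minus strand, and at chr10:58334829-58334978 (UBE2D1) and chr2:180980547-180980604 (UBE2E3) on the plus strand. All 150 bases of the UBE2G1 and UBE2S stretches lay inside a peak in both replicates, as did all 25 of UBE2D3. Of the 150 bases of UBE2N, all lay in the replicate 1 peak and 146 in the replicate 2 peak. The 150 bases of UBE2J1 lay wholly inside a replicate 1 peak and outside all replicate 2 peaks. No base of the UBE2D1 and UBE2E3 stretches was in a peak. GGGCGG, the GC box read by SP1, occurred in all 7 stretches, including both without a peak, and UBE2G1 held 4 matches, of which a pair overlapped.

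The motifs were then counted over the window from 250 bases before to 50 after the start, which RefSeq gave for 28 of the 34 E2 genes and 15316 other protein-coding genes. The entry lay at the canonical start in 27 of the 28, with UBE2L3 the other. UBE2B, UBE2C, UBE2H, UBE2Q1, UBE2V2 and UBE2W were not matched. GGGCGG was present in 24 of 28 E2 windows (85.7%) and in 61.7% of the other windows. TGTA, the DNA form of the UGUA word that NUDT21 recognises in RNA, was present in 9 E2 windows (32.1%) and in 49.8% of the others. The ETS word CCGGAAG was present in 4 E2 windows against 14.8% of the others, CCAAT in 7 against 36.6%, the NRF1 word GCATGCGC in 2 against 4.37%, the CRE word TGACGT in 5 against 9.88%, the E-box CACGTG in 0 against 8.88% and TATAAA in 1, UBE2S, against 9.42%. These are counts of letters on both strands and were not tested. The other windows were not matched for base composition, and the median GC content was 72.5% in the E2 windows against 63.7% in the others. The E2 windows were also rich in CpG, with a median of 36 CpG pairs (range 13 to 53) against 23 in the other genes. UBE2E3, without any peak, had the most CpG pairs of the family.

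Of the 34 E2 genes, 31 (91.2%) had a promoter peak in replicate 1, where 69.8% of all protein-coding genes had one. In replicate 2 it was 26 (76.5%) against 57.9%. All of those 26 also had one in replicate 1, so that 26 genes, or 76.5% with a 95% Wilson interval of 60 to 87.6% that covers counting error only, had promoter peaks in both replicates, against 57.0% of all protein-coding genes. The E2 genes thus stood above the background, and the next comparisons asked how far their base composition went with it.

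E2 promoters are rich in GC. Over 1000 bp around the outermost 5′ end the median GC content of the E2 genes was 66.4% (range 32.3 to 77.3%), and that of the other protein-coding genes was 59.2%. The share of genes with promoter peaks in both replicates rose with GC content, from 4.67% of genes at 28 to 32% GC to 70.4% at 60 to 64%, and changed little from there up to 76% GC. For each E2 gene, all other protein-coding genes within 2 points of its GC content were therefore taken, between 267 and 3294 genes. On average 63.5% of them had promoter peaks in both replicates, so that the E2 genes lay 13.0 percentage points higher. The difference was 14.2 points in replicate 1 (77.0% of like genes) and 12.2 points in replicate 2 (64.2%). E2 genes also have more annotated starts, with a median of 7.5 against 5, and so more places where a peak counts. With genes alike in GC content and in number of starts the comparison share was 68.7% and the difference 7.79 points. With the GC content taken around the canonical start the difference was 7.66 points. The Wilson interval of the E2 share (60 to 87.6%) is a description that treats the genes as independent. The E2 genes were chosen by name and include close paralogs, so the interval is no test against the 57.0%, the 63.5% or the 68.7%.

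**Figure D1:**
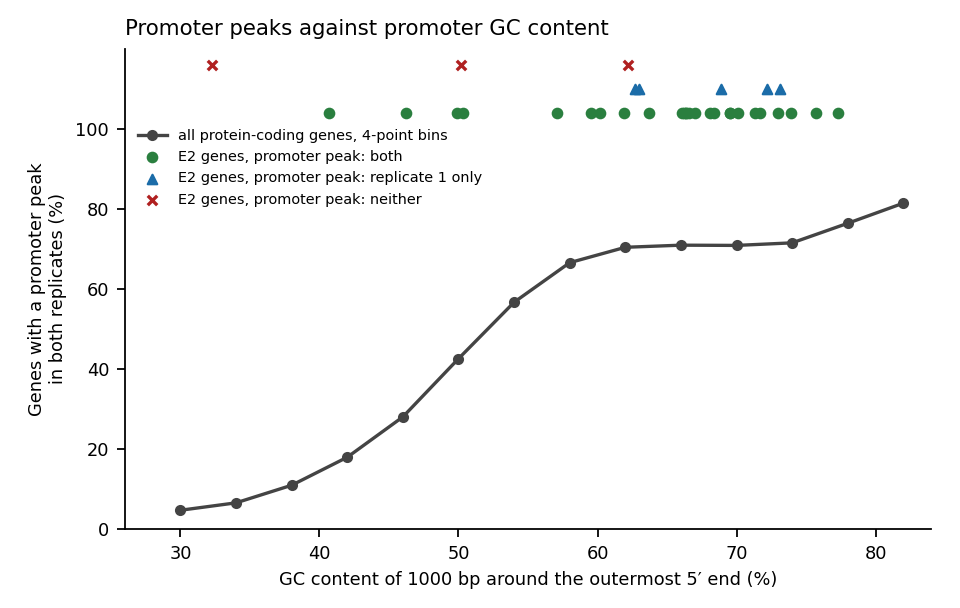
The line gives the share of all protein-coding genes with promoter peaks in both replicates (y axis, %) in 4-point bins of promoter GC content (x axis, %). Marks above the line give the GC content of the 34 E2 genes, 26 with promoter peaks in both replicates, 5 in replicate 1 only and 3 in neither. The 5 genes found in replicate 1 only lie between 62.7 and 73.1% GC, among the genes found in both.

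The strength of a peak was read from the fold enrichment that the authors' caller gave at its summit and, to set both lists on 1 scale, from the percentile of that fold among all peaks of the same list. Over the 31 E2 genes with a promoter peak in replicate 1 the strongest peak had a median fold of 6.47 (range 2.46 to 16.8) with 54 fragments at the summit. Over the 26 genes of replicate 2 the median was 5.57 (range 2.81 to 14.2) with 25 fragments. The median percentile was 89.1 in replicate 1 and 79.3 in replicate 2. Over all protein-coding genes with a promoter peak it was 82.4 and 77.9, so the typical E2 promoter peak was close to that of other genes. The strongest peaks of both replicates overlapped each other in 20 of the 26 genes, and their summits lay within 200 bp in 12. Most summits were near a start, within 500 bp in 28 of 31 genes in replicate 1 and in 18 of 26 in replicate 2. These overlaps and distances were not counted for other genes, so they describe the E2 genes alone.

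**Figure D2:**
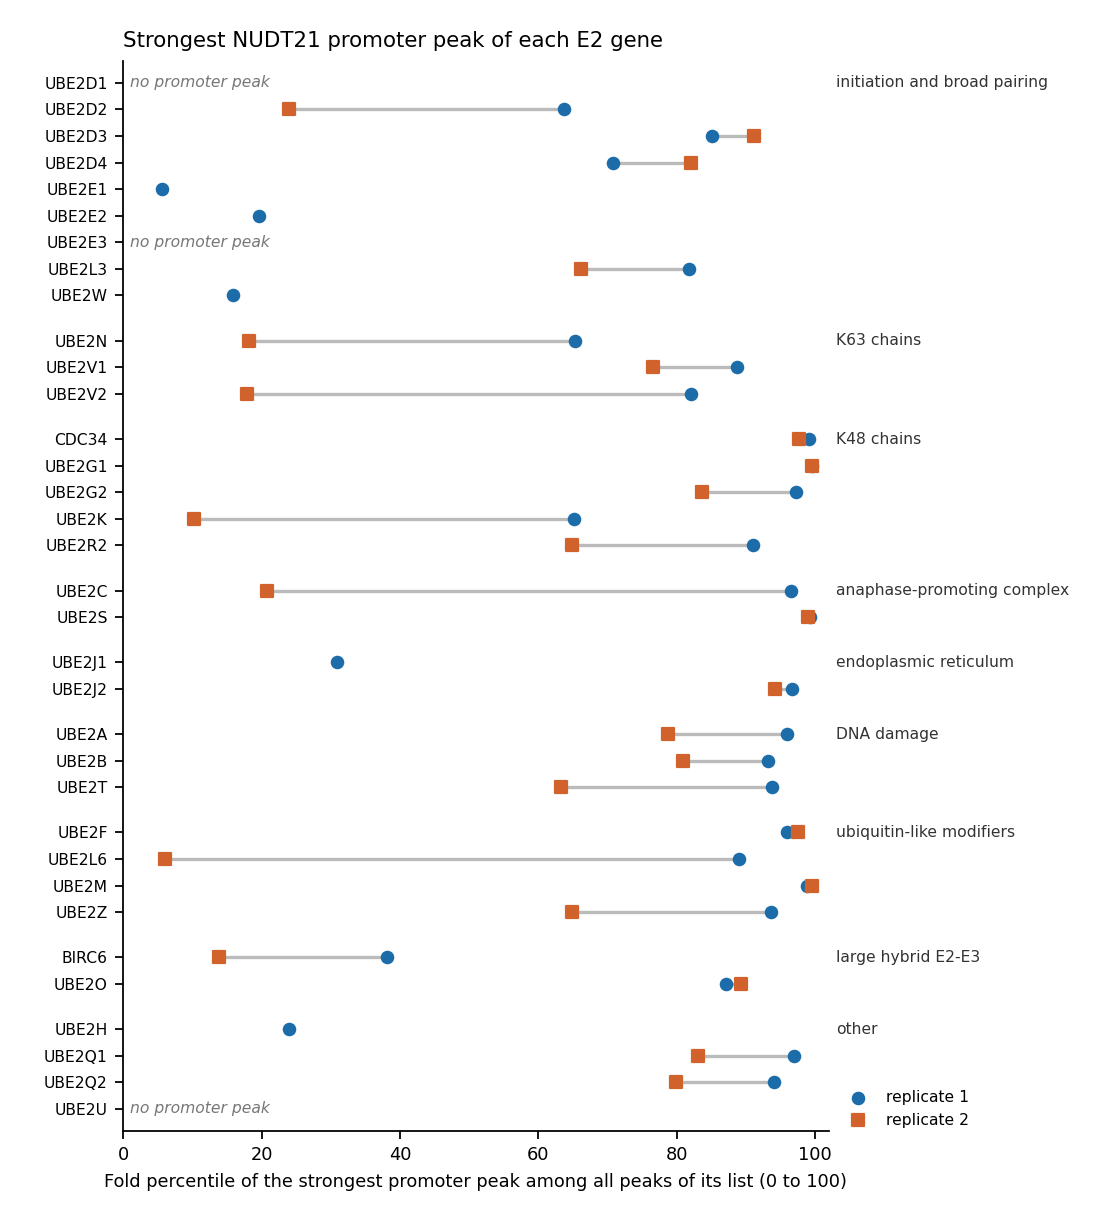
Each row is an E2 gene, grouped by role. The x axis gives the percentile (0 to 100) of the fold of its strongest promoter peak among all peaks of the same list, with circles for replicate 1 and squares for replicate 2, joined where both exist. UBE2G1, UBE2S, UBE2M, CDC34 and UBE2F sit above the percentile of 95 in both lists, and the 5 genes with a circle alone sit at 30.9 or lower.

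UBE2G1, an E2 that builds K48 chains with cullin-RING ligases, had the strongest promoter peak of the family. Its fold was 16.8 with 90 fragments in replicate 1 and 14.2 with 45 fragments in replicate 2, and the summits were 1 bp apart, 86 and 87 bp upstream of the start (chr17:4365224-4368102 in replicate 1). Both values were at the percentile of 99.6. UBE2S, which extends K11-linked chains on the anaphase-promoting complex, was second by mean percentile, with a fold of 14.7 in replicate 1 and 11.5 in replicate 2. It had the most fragments of any E2 promoter summit in both lists, 174 and 81 (chr19:55406690-55409052 in replicate 1). UBE2M, the E2 that gives NEDD8 to cullins, had folds of 12.5 and 13.5, the second highest of replicate 2. In replicate 1 a single peak of UBE2M reached the start of the neighbouring gene CHMP2A, and in replicate 2 the strongest peak was the one by CHMP2A, with a separate peak of fold 12.0 at the UBE2M start itself. CDC34, the E2 of SCF ligases, had folds of 13.8 and 9.49. Its summits were 439 and 582 bp upstream of the start. UBE2F, the second NEDD8 E2, had folds of 8.60 and 9.29 at a peak 381 and 354 bp upstream of an internal start. Starts of the readthrough gene UBE2F-SCLY were within reach of the same peak, so it cannot be given to one of them.

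Of the genes named by the study, UBE2D3 had promoter peaks in both replicates. UBE2D3 pairs with many RING ligases and places the first ubiquitin on substrates. At its canonical start the fold was 5.92 in replicate 1 (chr4:102826562-102828562) and 6.94 in replicate 2 (chr4:102826703-102828561), at percentiles of 85.2 and 91.2. The summits lay 135 and 534 bp upstream of the canonical start. A weaker peak, with summits 41537 and 41568 bp upstream of the canonical start, stood at the outermost UBE2D3 start, which faces the start of CISD2 (fold 3.76 and 3.68). The canonical UBE2D3 summit held 166 fragments in replicate 1, a count second to that of UBE2S, and 76 in replicate 2. Its control level, the background recovered from the deposited values, was 25 and 10.1 and the highest of the strongest E2 promoter peaks in both lists. The median control level of those peaks was 7 in replicate 1 and 4.18 in replicate 2. UBE2D3 therefore ranked higher by fragments than by fold.

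UBE2N, the catalytic E2 of K63 chains, had a single promoter peak in each replicate. In replicate 1 the summit held 88 fragments where the control level was 17, a fold of 4.56 (chr12:93441678-93442576). In replicate 2 it held 35 where the level was 10, a fold of 3.27 (chr12:93441952-93442419). The summits lay 207 and 287 bp upstream of the start, and the percentiles were 65.3 and 18.2. UBE2J1, which is anchored in the membrane of the endoplasmic reticulum and serves the removal of misfolded proteins there, had a promoter peak in replicate 1 only. Its summit held 39 fragments where the control level was 10, a fold of 3.36, and lay 302 bp upstream of the start (chr6:89352383-89353554). The nearest replicate 2 peak was 36242 bp from the start. Of the 3 genes UBE2D3 thus ranked high in both lists, UBE2N ranked low in replicate 2, and UBE2J1 was found in replicate 1 alone.

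**Figure D3:**
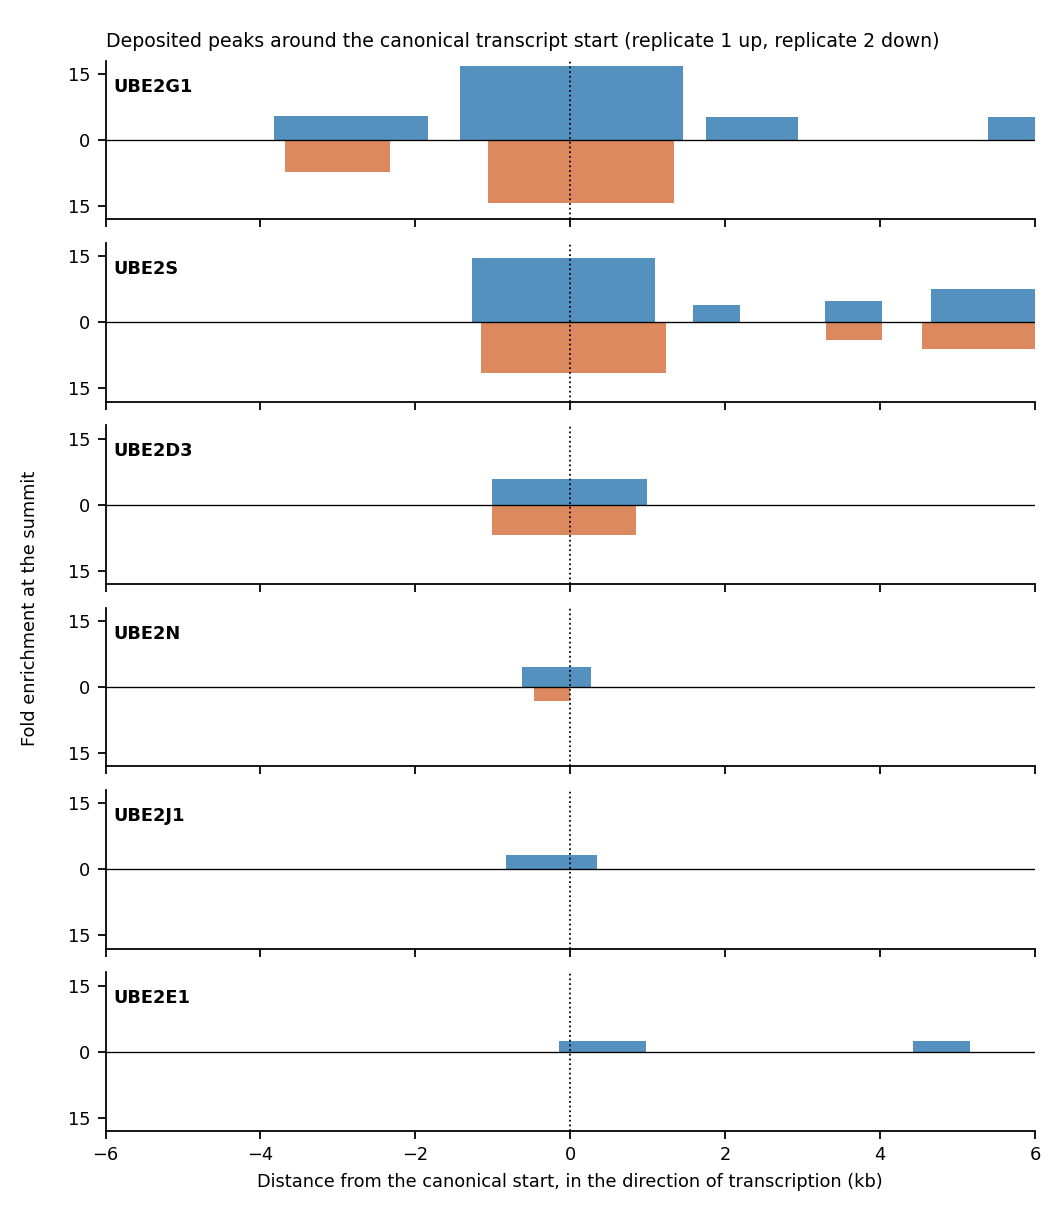
Deposited peaks of 6 E2 genes within 6 kb of the canonical transcript start (x axis, kb, dotted line at the start), drawn to their length with the fold at the summit as height (y axis), replicate 1 upward and replicate 2 downward. UBE2G1 and UBE2S have peaks of fold 11.5 to 16.8 over the start, UBE2D3 of 5.92 and 6.94 and UBE2N of 4.56 and 3.27, and UBE2J1 and UBE2E1 have replicate 1 peaks only.

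By role, promoter peaks in both replicates were first counted among the chain-building and DNA repair enzymes. The share was 57.0% over all protein-coding genes and 63.5% over genes of like GC content to the family. The role groups hold 2 to 9 genes, and none was tested against these shares. All 5 K48 enzymes had promoter peaks in both replicates, with folds of 4.55 to 16.8 in replicate 1 and 2.99 to 14.2 in replicate 2. So did all 3 genes of the K63 group. Besides UBE2N these are UBE2V1 and UBE2V2, the catalytically inactive partners of UBE2N, and the 3 folds ran from 4.56 to 6.46 and from 3.25 to 5.38. The highest of each range were different UBE2V1 peaks, with summits 2202 bp apart. The UBE2V1 promoter peak of replicate 2 overlapped a replicate 1 peak of fold 5.54. UBE2C and UBE2S, which start and extend chains on the anaphase-promoting complex, each had promoter peaks in both replicates. The strongest UBE2C peak of replicate 1, of fold 9.06, lay 436 bp beyond the 3′ end of this short gene and had no replicate 2 partner, and the peaks at its start had folds of 3.31 and 3.34. The DNA repair E2s UBE2A and UBE2B, the human RAD6 proteins, and UBE2T, the E2 of the Fanconi anemia pathway, all had them. Their folds were alike, 7.41 to 8.60 in replicate 1 and 4.70 to 5.68 in replicate 2. The UBE2B peak was also within reach of starts of CDKL3.

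All 4 E2s of ubiquitin-like modifiers also had promoter peaks in both replicates. Besides UBE2M and UBE2F these are UBE2L6, the ISG15 E2, and UBE2Z, which takes ubiquitin and FAT10 from UBA6. UBE2L6 showed the widest gap in percentile between the lists, with a fold of 6.47 at the percentile of 89.1 in replicate 1 and of 2.81 at 6.08 in replicate 2. UBE2Z had folds of 7.58 and 4.76 at a peak whose summits lay 1172 and 1164 bp upstream of its start, with weaker peaks of 3.58 and 2.46 at the start. The hybrid enzymes UBE2O and BIRC6, which join E2 and E3 activity in 1 protein, both had them, with folds of 3.58 and 3.12 for BIRC6. The strongest UBE2O peaks were different ones, of fold 6.19 by the canonical start in replicate 1 and of 6.6 at an internal start in replicate 2, with summits 47092 bp apart. By the canonical UBE2O start replicate 2 had a peak of fold 2.79. UBE2Q1 and UBE2Q2, long-tailed members of less known role, had folds of 9.49 and 7.75 in replicate 1 and of 5.87 and 5.62 in replicate 2.

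Among the initiating and broadly pairing enzymes, 4 of 9 genes had promoter peaks in both replicates (UBE2D2, UBE2D3, UBE2D4 and UBE2L3). The ER enzymes had them at 1 of 2 genes and the enzymes of other roles at 2 of 4. Differences between roles of so few genes, or from the 57.0% of all protein-coding genes, were not tested. Close paralogs differed here. In the UBE2D family, UBE2D2 to UBE2D4 had promoter peaks in both replicates and UBE2D1 had none in either. In the UBE2E family, UBE2E1 and UBE2E2 had peaks in replicate 1 only and UBE2E3 had none. Among the ER enzymes UBE2J2 had folds of 9.23 and 7.69 at peaks with summits 4489 bp apart, where UBE2J1 was found in replicate 1 only.

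5 E2 genes had a promoter peak in replicate 1 only, and all of these peaks were weak. The folds were 2.46 for UBE2E1, 2.88 for UBE2W, 3.0 for UBE2E2, 3.14 for UBE2H and 3.36 for UBE2J1, with 25 to 52 fragments at the summit. UBE2W attaches ubiquitin to N-termini, and UBE2H works with the CTLH ligase. UBE2E1 had a pair of peaks of equal fold, 81 bp upstream of its canonical start and 4891 bp downstream of it at another start, each with 31 fragments where the control level was 11. The UBE2W peak also reached the start of another coding gene. The nearest replicate 2 peak lay 17532 bp from the canonical start at UBE2H, 91972 bp at UBE2W, 110622 bp at UBE2E1 and 713250 bp at UBE2E2. These 5 genes held the 5 lowest percentiles of the family in replicate 1, from 5.67 to 30.9. The limit of 30.9 used next is the highest of these 5. That each of the 26 E2 genes above it had a replicate 2 peak follows from this choice. So does the lack of one at all 5 genes at or under it. Neither is a comparison with other genes. Of other protein-coding genes, 41.5% of the 1971 at or under the percentile of 30.9 had a promoter peak in replicate 2, and 88.4% of the 11976 above it did. Replicate 2 had fewer fragments per peak, and the part of this in these absences was not tested.

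UBE2D1, UBE2E3 and UBE2U had no promoter peak in either replicate. The nearest peak to the canonical UBE2D1 start was 50003 bp away in replicate 1 and 2443458 bp away in replicate 2. For UBE2E3 the distance was 430435 and 430405 bp, and for UBE2U it was 301765 and 540961 bp. None of the 3 had a gene-body or gene-end peak either. The GC content at the canonical start was 62.8% for UBE2D1 and 77.6% for UBE2E3, so 2 of these genes had a GC-rich promoter, and 50.2% for UBE2U. The 1000 bp around the outermost UBE2E3 start, which belongs to a distant transcript, were at 32.3%.

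The surroundings of the E2 genes differed widely in peaks. Peaks of replicate 1 whose summits lay within 500 kb of the canonical start, leaving out those within 3000 bp of the gene's own starts, numbered from 0 at UBE2E2 to 264 at UBE2O, with a median of 71 against 43 for the other protein-coding genes. In replicate 2 the median was 50 against 25. The 26 E2 genes with promoter peaks in both replicates had a median of 100.5 such peaks in replicate 1, the 5 found in replicate 1 only had 5, and the 3 with none had 3. Other protein-coding genes gave medians of 113, 16 and 6 in the same 3 classes, so the E2 genes followed the pattern of genes at large. All 20 E2 genes with more than 42 surrounding peaks had promoter peaks in both replicates (83.8% of such other genes), and 6 of the 14 with 42 or fewer did (30.1%). The limit of 42 was set after the values were seen, at the highest count among the E2 genes without promoter peaks in both replicates. It therefore fixed the 20 of 20 in advance and placed every E2 gene without promoter peaks in both replicates among the 14. Neither count is a comparison with the 83.8% or the 30.1%. The 6 were UBE2N, UBE2D3, BIRC6, UBE2V2, UBE2L6 and UBE2A. UBE2N had 3 surrounding peaks in replicate 1 and 0 in replicate 2, and UBE2D3 had 7 and 4. Against genes alike in GC content around the outermost 5′ end and in surrounding peaks of replicate 1, the E2 genes lay 11.5 points higher (65.0% of like genes). That comparison did not match the number of starts or the GC content at the canonical start, for which the differences were 7.79 and 7.66 points.

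**Figure D4:**
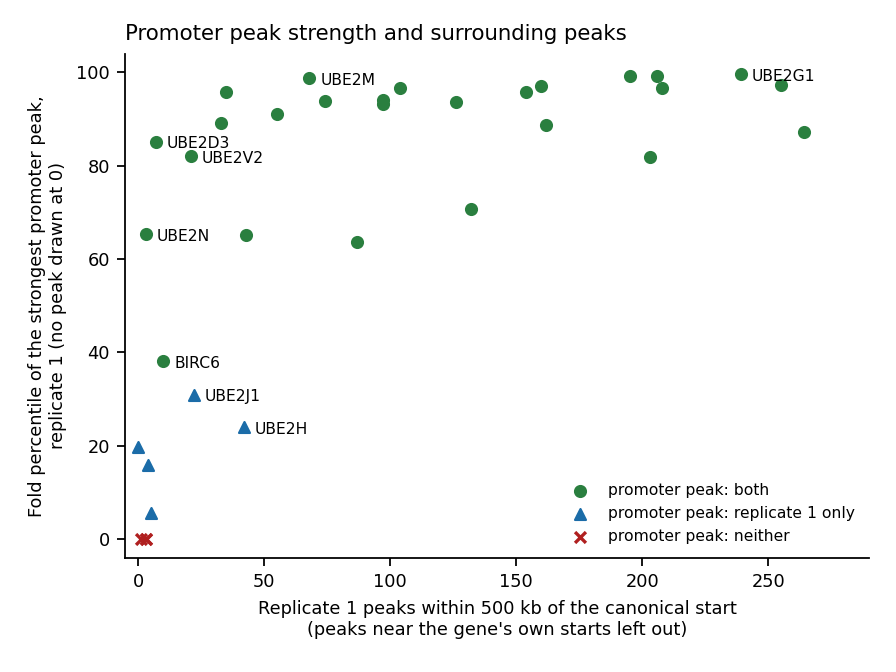
Each mark is an E2 gene. The x axis counts replicate 1 peaks within 500 kb of the canonical start and the y axis gives the percentile of the strongest promoter peak in replicate 1, with genes without one drawn at 0. UBE2N (3 peaks, percentile 65.3) and UBE2D3 (7 peaks, percentile 85.2) lie at the upper left, above the other genes with 10 or fewer surrounding peaks.

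Gene-body peaks beyond promoters were found at 18 E2 genes (52.9%) in replicate 1, where 31.2% of all protein-coding genes had one, at 10 (29.4%) in replicate 2 against 25.0%, and at 9 (26.5%) in both against 22.3%. Against genes of like promoter GC the difference was 16.7 points in replicate 1 (36.3% of like genes), -0.325 points in replicate 2 and -0.468 points in both, so it was present in replicate 1 alone. E2 genes are long, with a median of 57.0 kb against 27.4 kb for other genes. Among genes alike in GC content and length, 32.0% had a body peak in both replicates, which put the E2 genes 5.51 points lower. The 85 body peaks of replicate 1 had a median fold of 4.05 and the 46 of replicate 2 of 4.31. The summits lay in introns for 84 of 85 and for 46 of 46. Of the replicate 1 body peaks 36 overlapped a replicate 2 peak, and of those of replicate 2, 38 overlapped a replicate 1 peak. The intron and overlap counts were not made for body peaks of other genes.

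Body peaks were concentrated in 3 genes, UBE2L3, UBE2O and UBE2G1, which held 48 of 85 in replicate 1 (56.5%) and 31 of 46 in replicate 2 (67.4%). UBE2L3, the E2 that serves HECT and RBR ligases, had 19 and 18, all in introns, with median folds of 3.76 and 3.79. Of these 14 and 15 overlapped a peak of the other replicate. That is 2.55 and 2.41 body peaks per 10 kb. Of 3592 other genes within 1.5 times its length, 1.31% had as many in replicate 1 and 0.947% in replicate 2, and the median number was 0. UBE2O had 17 and 8 body peaks, and 8 in each list overlapped a peak of the other. Among genes of like length 1.25% had as many in replicate 1 and 5.77% in replicate 2. UBE2G1 had 12 and 5, a number reached by 7.76% and 13.7% of genes of like length. The longest E2 genes had 0 in both replicates at UBE2E2 (388.8 kb) and 1 and 0 at BIRC6 (262.5 kb). The median of other genes of like length was 0 for both, and 46.6% of those like BIRC6 had at least 1 in replicate 1. The surroundings of these genes differed too. Replicate 1 peaks within 500 kb, own body peaks included, numbered 203 at UBE2L3, 264 at UBE2O and 239 at UBE2G1. UBE2E2 had 0 and BIRC6 had 10, and the median of the E2 genes was 71. The comparisons by length did not match this, and its part was not tested.

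**Figure D5:**
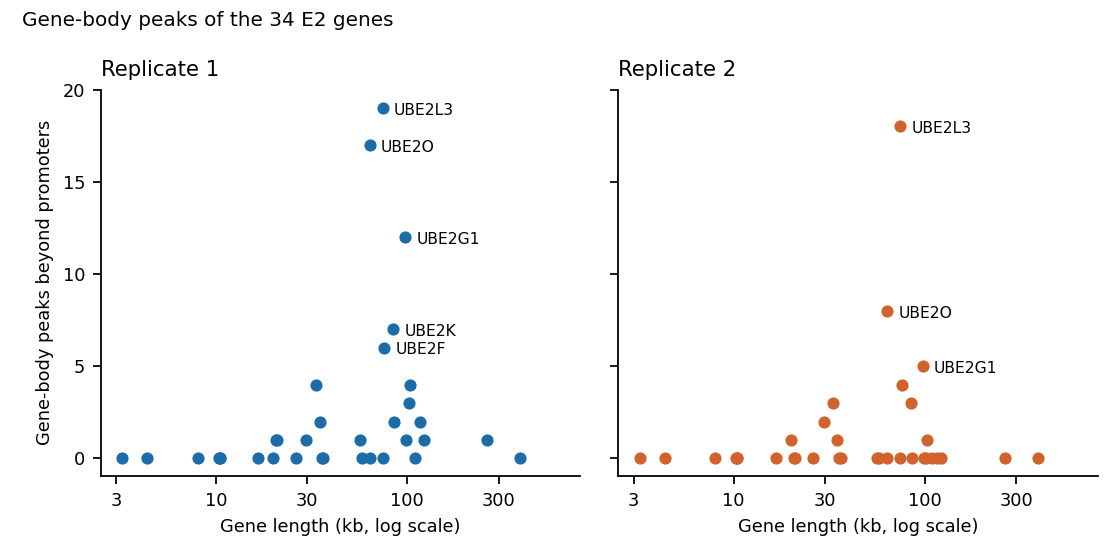
Number of gene-body peaks beyond promoters (y axis) against gene length (x axis, kb, log scale) for the 34 E2 genes in replicate 1 (left) and replicate 2 (right). UBE2L3, UBE2O and UBE2G1 hold 19, 17 and 12 peaks in replicate 1 and 18, 8 and 5 in replicate 2, while the longest genes hold 1 or 0.

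Since NUDT21 acts at the 3′ ends of pre-mRNAs, gene ends were examined apart. A gene-end peak was found at 3 E2 genes (8.82%) in replicate 1, where 9.91% of all protein-coding genes had one, at 4 (11.8%) in replicate 2 against 7.59%, and at 3 in both against 5.98%. Among genes of like GC, 7.27% had one in both. The 3 genes were UBE2S, UBE2G2 and UBE2Z. At UBE2S the peak lay just beyond the 3′ end, with folds of 10.6 and 10.8 and summits 900 and 703 bp past it. At UBE2G2, the K48 enzyme of the ER, the summits lay 419 and 413 bp past the end with folds of 5.93 and 5.30, and replicate 2 had another peak of fold 3.43 with its summit inside a UTR exon. At UBE2Z the folds were 3.95 and 2.99, also with summits inside a UTR exon. UBE2H had a gene-end peak of fold 3.65 in replicate 2 only. None was found at UBE2D3, UBE2N or UBE2J1. The nearest peak to the outermost UBE2D3 end was 32179 bp away in replicate 1 and 32320 bp in replicate 2. For UBE2N it was 26951 and 36279 bp, and for UBE2J1 24145 and 24186 bp. At these 3 genes no gene-end peak was detected at this depth, which does not show that NUDT21 was absent there.

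Of the 34 E2 gene ends, 20 lay over 4000 bp from every annotated start, and the others lay where peaks near a start were left out. When peaks near a start were also counted, 9 E2 genes had a peak within 1000 bp of their end in both replicates, where 25.7% of all protein-coding genes had one. These were CDC34, UBE2C, UBE2G2, UBE2J2, UBE2L3, UBE2M, UBE2O, UBE2S and UBE2Z.

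The other steps of the pathway were listed by class, 78 genes in all, and 59 of them (75.6%) had promoter peaks in both replicates, where 57.0% of all protein-coding genes and 64.1% of genes of like GC had one. The ubiquitin genes had one at 3 of 4 (not UBB), and the E1 enzymes, which load the E2s, at 7 of 9 (not UBA3, the NEDD8 E1 subunit, nor ATG7). Of other proteins with the E2 fold 5 of 8 had one, without ATG10, UBE2QL1 and UBE2NL. RING and RBR ligases had one at 17 of 22, and HECT ligases, which take ubiquitin onto themselves, at 11 of 15. Cullin and anaphase-promoting complex parts had one at 16 of 20 (not CUL1, CUL2, CUL4B or CUL5). The share of E2 genes, 76.5%, was thus close to that of the pathway around them.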

How the data were processed

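NUDT21 CUT&Tag peaks of 2 J.gamma1 samples were used. Per the labels and the study's methods, the authors processed reads with fastp, Bowtie2 2.2.5 and Picard on hg38 and called peaks in each replicate with MACS3 3.0.1. The deposited lists give the fold enrichment at the summit (a ratio), −log10 p and −log10 q, whose lowest value was 2.00, and a score, the −log10 q times 10 cut to a whole number, which was not used. No read totals were used, so depth is unknown beyond the recovered fragments, a median of 30 and 20 per summit. Fragments and control level at each summit were solved from the deposited fold and −log10 p (steps of 0.921 and 1 in the pileup). These values imply a control library that the sources used here do not describe.

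Peaks were assigned with GENCODE release 44 by Python 3.11.15, numpy 2.4.6, pandas 2.3.3, scipy 1.17.1 and pysam 0.24.0, and the assignment was tested on simulated data. With 1 group no test between conditions was possible and no p-value is given. Comparison genes were all other protein-coding genes within 2 points of GC content, averaged over the E2 genes. The E2 genes, the pathway, role and marker lists and the tests were chosen with earlier results of these data known. Named genes were UBE2D3, UBE2N and UBE2J1, the 5 with the highest mean percentile, those with a promoter peak in 1 replicate or none, those with gene-end peaks in both and the 3 with most body peaks. The others are given by role. Single genes of the RING, RBR and HECT ligase lists are not reported here.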

Additional observations from a re-analysis of the deposited data

How the results depend on the processing

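The count of E2 genes whose promoter had peaks in both replicates (26) ranged from 26 to 31 when either replicate was left out and fell to 12 with 10000 peaks a list, those of lowest p, where 24.6% of all protein-coding genes had one. It stayed within 1.5 times under the other alternatives. The difference from genes of like GC (13.0 points) was positive under every alternative run. It was 9.02 with −log10 q of at least 5, 6.34 with 10000 peaks, 16.3 with promoters within 1000 bp, 14.4 with summits, 15.5 with the outermost start, 24 without peaks that reach another gene, 11.2 with GC over 300 bp and 19.5 against all other protein-coding genes. Of the alternatives chosen after seeing the data, the GC at the canonical start gave 7.66, like GC and number of starts 7.79, and like GC and surrounding peaks 11.5. Leaving out a replicate gave 12.2 to 14.2. The mean of both median percentiles (84.2) ranged from 79.3 to 89.1 without a replicate and was 54.4 with 10000 peaks, where weak peaks are gone from the ranking, 76.4 with the outermost start and 75.7 without peaks that reach another gene.

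The count with gene-body peaks (9) was 0 with 10000 peaks and ran from 10 to 18 when a replicate was left out, with 18 in replicate 1. The difference from like genes (-0.468 points) turned positive with −log10 q of at least 5 (3.63) and without replicate 2 (range -0.325 to 16.7), and the cause was not tested. The count with gene-end peaks (3) was 1 with 10000 peaks, 6 within 3000 bp of the end and 9 with ends near a start included, which was chosen after seeing the data, and 3 to 4 without a replicate.

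No paired analysis was possible because there was a single group. Peaks are present or absent in each list, neighbouring genes share peaks, and weak peaks lie near the threshold of the caller, with fewer fragments per summit in replicate 2. Peaks shared with another start cannot be given to 1 gene.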
